A study of Rattus norvegicus with 8 samples.

Results

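The genes described here are 10 markers with which macrophages are commonly sorted into activation states and into resident or recruited cells: Arg1, Nos2, Mrc1, Cd163, Adgre1, Lyve1, Timd4, Gpnmb, Il10 and Cd80. They were chosen by name from a table of 22601 genes, in which all 10 were found. PolyA RNA was sequenced from rat sciatic nerve on day 15 after chronic constriction injury (CCI), in which loose ligatures are tied around the nerve, or after sham surgery. Each group had 4 libraries, named CCI 1 to 4 and sham 1 to 4 here. The series concerns an axis of FGF4 and HIF-1α in neuropathic pain. Strain, sex and age are not stated in the labels. Nothing in the labels ties a library to an animal of its own, and p-values therefore reflect variation among libraries that may be technical in part.

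Macrophages in a peripheral nerve are partly long-lived resident cells and partly descendants of monocytes that enter after injury, where they clear myelin debris. Classical activation, by interferon and bacterial products, is marked in rodents by the inducible nitric oxide synthase Nos2, while alternative activation, by interleukin-4 and interleukin-13, is marked by the arginase Arg1 and the mannose receptor Mrc1. The scavenger receptor Cd163, the hyaluronan receptor Lyve1 and the phosphatidylserine receptor Timd4 are used as markers of resident cells, and Gpnmb as a marker of macrophages loaded with lipid. These labels come from sorted cells and cultures. In whole nerve, more cells of a type and more RNA per cell cannot be told apart.

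Of the 10 markers, 8 rose in CCI nerve and 0 fell, while Cd163 and Lyve1 did not pass the test. Levels are CPM, the count of a gene as a rate of the library total after TMM scaling, which corrects for library makeup. A call required an adjusted p under 0.05 (Benjamini-Hochberg) in edgeR's quasi-likelihood test over the 15763 genes tested. Over all of these, 68.4% were called, with 36.2% higher and 32.2% lower in CCI, so a called gene was common in this comparison. Of the called genes 52.9% were higher in CCI, and 66.9% with libraries scaled by their totals only. For 7 markers the lowest CCI library lay above the highest sham library, as it did for 34.2% of all genes, while the reverse separation held for 30.6%. Nos2 and Il10, counted among both the 8 and the 7, passed the filter on counts through their CCI libraries alone. In this fit only a rise could be called for them. The median log2 fold change of the markers was 2.22, against 0.05 over all genes. The log2 fold changes ran between 0.04 for Lyve1 and 6.99 for Nos2.

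**Figure D1:**
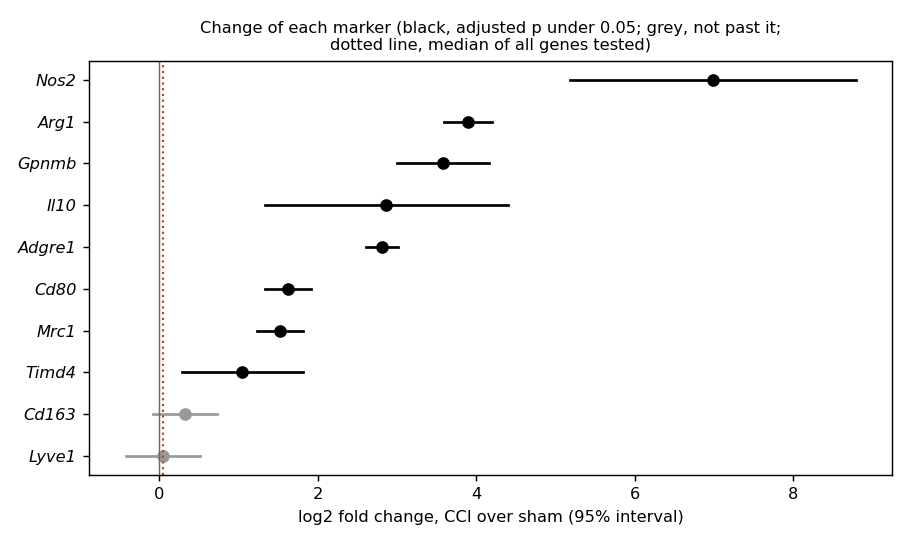
Log2 fold change of each marker, CCI over sham, with its approximate 95% interval; black markers had adjusted p under 0.05 and grey ones did not. Nos2 lies farthest to the right at 6.99, and the intervals of Cd163 and Lyve1 include 0.

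The libraries held between 42541217 and 54559292 counts, and 3 counts, the limit that a count of 0 allows, corresponded to between 0.0518 and 0.0771 CPM (counting error only). The tissue carried its own markers: all 10 genes of the myelinating Schwann cell were present and fell in CCI, with summed levels between 6689 and 10265 CPM in CCI libraries and between 89747 and 105904 CPM in sham libraries. All 16 pan-macrophage genes, a list of genes that all macrophages share (Csf1r, Cd68, Aif1, C1qa and others, several also found in other leukocytes), rose in CCI, with a median log2 fold change of 2.56. Skeletal muscle RNA was uneven, with 2741 summed CPM in CCI 2 and 694 CPM in sham 2, against 14.3 to 523 CPM in the other libraries of both groups. Without CCI 2 and sham 2, 7 markers were called, Timd4 no longer among them.

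The enzymes that compete for arginine both rose. Nos2, which makes nitric oxide from arginine, had 5.51, 4.00, 4.18 and 11.5 CPM in CCI 1 to 4, against 0, 0, 0.163 and 0.0221 CPM in sham 1 to 4. Every CCI library was above every sham library, and CCI 4 stood well above the other CCI libraries. The sham libraries held 8 Nos2 counts in all, 7 of them in sham 3, against 1273 counts in the CCI libraries. The ratio of the pooled rates was 132 (95% exact counting interval 66.6 to 306), an interval that leaves out the spread among libraries. The fitted fold, which takes that spread in, was 127 (95% interval 36.3 to 442). The fitted log2 fold change was 6.99 (SE 0.80, edgeR adjusted p = 4.14e-05), or 9.23 without sham 3. Because Nos2 passed the filter on counts only through its CCI libraries, that test could call only a rise. Without the filter Nos2 was also called, at 6.96 (edgeR adjusted p = 6.87e-05).

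Arg1, which splits arginine into urea and ornithine, had 26.7, 26.2, 23.2 and 21.1 CPM in CCI libraries, against 1.90, 1.37, 1.53 and 1.74 CPM in sham libraries. The groups were far apart and the spread within each was small. The fold was 14.8 (95% interval 12.0 to 18.3), with a log2 fold change of 3.89 (SE 0.14; edgeR adjusted p = 6.43e-09). Per length, in the deposited FPKM, Arg1 averaged 17.4 ± 1.70 and Nos2 1.93 ± 1.08 in CCI nerve (SD, n = 4), and the ratio of Arg1 to Nos2 in single CCI libraries ranged from 4.31 to 15.3. In CCI 4, which had the highest Nos2 and the lowest Arg1, that ratio was the lowest. The log2 ratio of Arg1 to Nos2 CPM was 2.07 ± 0.82 in CCI and 4.57 ± 1.13 in sham libraries (SD, n = 4, prior count of 2; exact two-sided permutation test, p = 0.0286, the smallest that 4 against 4 libraries allow). Because Nos2 was at 0 in sham 1 and sham 2, the sham ratio rests on the added prior count: on log2(FPKM + 0.1) the difference was -0.07 (exact permutation p = 0.886).

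Other genes of arginine handling went both ways. Of the 16 besides Arg1 and Nos2, all tested, 4 rose and 7 fell, with a median log2 fold change of 0.02. With libraries scaled by their totals only, 6 rose and 6 fell: the fall of the transporter Slc7a1 was not called (edgeR adjusted p = 0.23), and Asl and Oat were called higher (0.00437 and 0.00248). Gch1, the first enzyme of synthesis of the nitric oxide synthase cofactor tetrahydrobiopterin, averaged 6.20 ± 1.15 CPM in CCI and 1.22 ± 0.539 CPM in sham libraries (edgeR adjusted p = 5.34e-05). Nos3, the endothelial synthase, rose by 1.24 on the log2 scale, and Ass1, which with Asl rebuilds arginine from citrulline, rose by 0.92. The blood endothelium list rose in 9 of its 10 genes, with summed levels of 1608 to 1830 CPM in CCI and 862 to 972 CPM in sham libraries, and its part in the level of Nos3 was not tested. On the other side, the neuronal synthase Nos1 averaged 2.67 ± 1.08 CPM in CCI and 20.8 ± 1.94 CPM in sham libraries (edgeR adjusted p = 1.05e-05). The mitochondrial arginase Arg2 averaged 2.06 ± 0.433 CPM in CCI and 4.37 ± 0.291 CPM in sham libraries (edgeR adjusted p = 0.000546), opposite in direction to Arg1. Ddah1, which breaks down methylated arginines that inhibit the synthases, averaged 118 ± 13.3 CPM in CCI and 772 ± 82.6 CPM in sham libraries. The arginine transporter Slc7a2, abundant in sham nerve at 138 ± 11.9 CPM, had 75.1 ± 6.86 CPM in CCI nerve. Odc1, the enzyme that turns ornithine into putrescine, was at 69.9 ± 9.04 CPM in CCI and 73.8 ± 2.61 CPM in sham libraries and did not pass (edgeR adjusted p = 0.441).

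**Figure D2:**
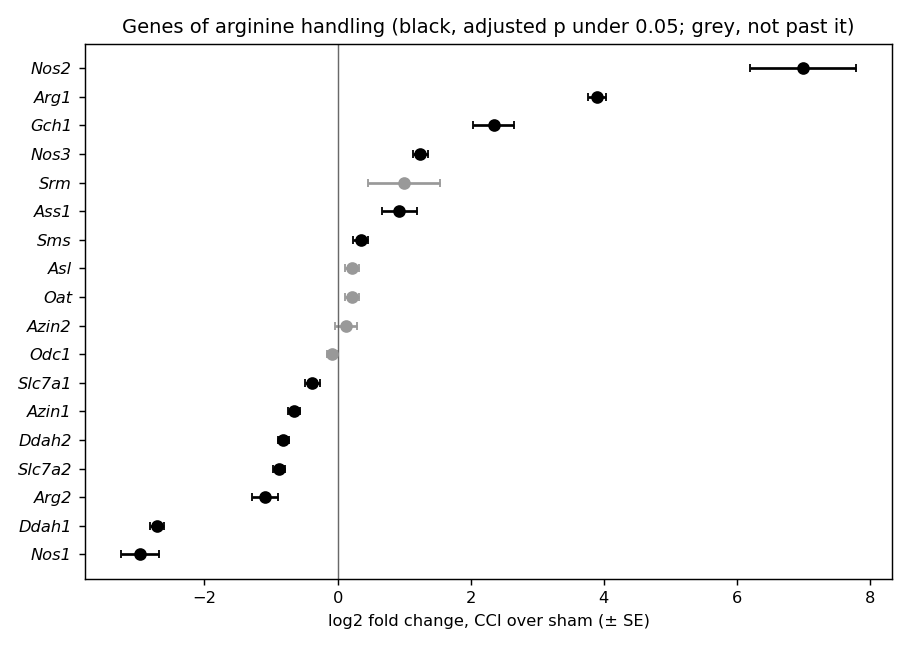
Log2 fold change, CCI over sham, of the 18 genes of arginine handling, with SE as bars; black markers had adjusted p under 0.05 and grey ones did not. Nos2 and Arg1 are the largest rises, and Nos1 and Ddah1 the largest falls.

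Cd80, a costimulatory ligand of CD28 and CTLA4 on antigen-presenting cells, was higher in CCI. It had 14.4, 13.2, 14.0 and 11.3 CPM in CCI 1 to 4, against 4.11, 4.24, 5.09 and 3.73 CPM in sham 1 to 4. The groups did not overlap, and the fold was 3.08 (95% interval 2.51 to 3.78; edgeR adjusted p = 1.46e-06). The related ligand Cd86 averaged 5.65 ± 0.403 CPM in CCI and 1.65 ± 0.571 CPM in sham libraries, with a log2 fold change of 1.77 (SE 0.24), close to the 1.62 (SE 0.13) of Cd80. Of their receptors on T cells, Cd28 averaged 8.60 ± 1.92 CPM in CCI and 4.10 ± 1.59 CPM in sham libraries, and the inhibitory Ctla4 averaged 1.94 ± 0.116 CPM in CCI and 0.187 ± 0.0860 CPM in sham libraries, and both passed. Dendritic cells also carry Cd80: of 10 tested genes of a dendritic cell list 8 rose, with summed levels of 531 to 559 CPM in CCI and 273 to 304 CPM in sham libraries, and their part in the level of Cd80 was not tested.

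Il10, an anti-inflammatory cytokine, was scarce in both groups. It had 0.829, 1.80, 1.11 and 0.587 CPM in CCI libraries, against 0.0771, 0.0235, 0.395 and 0.0882 CPM in sham libraries. All 4 CCI libraries lay above the sham libraries, the closest being CCI 4 and sham 3. The pooled counts were 223 in CCI and 25 in sham libraries, with 17 of the sham counts in sham 3. The log2 fold change was 2.86 (SE 0.69; edgeR adjusted p = 0.00362), 4.05 without sham 3, and 2.15 without both CCI 2 and sham 2 (edgeR adjusted p = 0.0202). Il10 too passed the filter on counts only through its CCI libraries. Without the filter it was also called, at 2.84 (edgeR adjusted p = 0.00352). The receptor chain Il10ra, which binds the cytokine, averaged 40.2 ± 4.18 CPM in CCI and 7.55 ± 1.64 CPM in sham libraries, and the shared chain Il10rb averaged 63.9 ± 2.05 CPM in CCI and 27.9 ± 5.11 CPM in sham libraries. Both receptor genes rose (edgeR adjusted p = 3.90e-07 and 6.01e-06).

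Mrc1, a mannose receptor that takes up glycoproteins, was the second most abundant of the markers per length in both groups, at 100.2 ± 9.04 FPKM in CCI and 29.9 ± 5.58 FPKM in sham libraries. In CPM it had 544, 502, 422 and 475 in CCI 1 to 4, against 141, 176, 212 and 148 in sham 1 to 4. The groups were separate by a wide margin, with a fold of 2.87 (95% interval 2.34 to 3.52; edgeR adjusted p = 3.01e-06). Its relative Mrc2, a collagen receptor found mainly on fibroblasts, rose by 1.42 (SE 0.10) on the log2 scale, against 1.52 (SE 0.13) for Mrc1.

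Cd163, the receptor for complexes of haemoglobin and haptoglobin, did not pass. It had 221, 272, 215 and 300.2 CPM in CCI libraries, against 163, 203, 272 and 166 CPM in sham libraries. The groups overlapped through sham 3 alone, which matched CCI 2. The fold was 1.25 (95% interval 0.946 to 1.66; edgeR adjusted p = 0.134). Without sham 3 the log2 fold change was 0.51 in place of 0.32 and passed (edgeR adjusted p = 0.0101), and it was 0.55 and passed with libraries scaled by their totals only (edgeR adjusted p = 0.0195). With that scaling the median of all genes was 0.27 in place of 0.05, and relative to the median Cd163 was 0.28 higher with either scaling. Among genes that act next to Cd163, Hmox1, which breaks down the haem taken up, averaged 226 ± 50.7 CPM in CCI and 21.0 ± 12.4 CPM in sham libraries, and haptoglobin, Hp, 6.84 ± 1.17 CPM in CCI and 2.46 ± 0.368 CPM in sham libraries. Both passed. Red cell RNA was uneven among the sham libraries, with 4769 and 5306 summed CPM in sham 1 and sham 4 and 722 and 1074 CPM in sham 2 and sham 3. The haemoglobin genes have near-identical copies, so only their sum is given, and the part of red cell RNA in the level of Cd163 was not tested.

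Lyve1 was at nearly the same mean level in both groups. It had 63.0, 58.2, 62.3 and 72.6 CPM in CCI 1 to 4, against 41.2, 63.8, 88.6 and 55.1 CPM in sham 1 to 4. The sham libraries lay on both sides of the CCI libraries, and their spread was the wider. The fold was 1.03, with a 95% interval of 0.744 to 1.42 (edgeR adjusted p = 0.865), and the sign of the log2 fold change of 0.04 turned when CCI 4, sham 1 or sham 4 was left out. Lymphatic endothelium also carries Lyve1. Its defining transcription factor Prox1 averaged 6.51 ± 4.17 CPM in CCI and 8.24 ± 4.05 CPM in sham libraries and did not pass. Of the 9 other tested genes of the lymphatic list, 2 rose and 4 fell, with summed levels, Lyve1 included, of 585 to 912 CPM in CCI and 1051 to 1157 CPM in sham libraries. How much of the Lyve1 RNA came from lymphatic vessels was not tested. Of genes that share its ligand hyaluronan, the receptor Cd44 averaged 459.7 ± 48.4 CPM in CCI and 100.4 ± 9.78 CPM in sham libraries, and the hyaluronan synthase Has1 averaged 7.49 ± 2.13 CPM in CCI and 1.94 ± 0.128 CPM in sham libraries, and both rose.

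The stretch of 250 bases before the start of Lyve1 is shown as that of the abundant marker with the smallest change (RefSeq, build GRCr8, chr1:174410978-174411227, minus strand, read 5′ to 3′), with capitals on its only match to the motifs searched, the STAT6 letters (TTC and GAA with 4 bases between them).
Lyve1: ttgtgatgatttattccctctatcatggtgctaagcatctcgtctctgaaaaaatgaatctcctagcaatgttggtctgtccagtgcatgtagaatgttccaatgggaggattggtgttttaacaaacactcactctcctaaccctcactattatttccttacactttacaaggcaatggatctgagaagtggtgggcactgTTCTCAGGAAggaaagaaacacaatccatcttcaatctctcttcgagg
RefSeq promoters of 300 bases (250 before the start and 50 after it) were matched for 7 of the 10 markers. Both strands were searched for CACGTG (a single form of the E-box), ACGTG (the core of the HIF motif, also inside CACGTG), GAGGAAGT (PU.1), TGACTCA (AP-1) and the STAT6 letters. The STAT6 letters occurred in 7.28% of the 33469 RefSeq promoters and TGACTCA in 4.63%. Of the 7 markers, 2 held a match to these letters, Lyve1 to STAT6 and Gpnmb to AP-1. No match to the E-box, HIF or PU.1 letters was found in these windows. A match is a description of the letters and says nothing of binding here.

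Timd4, which binds phosphatidylserine on dying cells, was low in both groups. It had 2.99, 3.17, 2.60 and 6.36 CPM in CCI libraries, against 1.49, 1.15, 2.63 and 2.03 CPM in sham libraries. CCI 4 stood apart from the other CCI libraries, and sham 3 lay just above CCI 3, so the groups overlapped. The fold was 2.07 (95% interval 1.22 to 3.51; edgeR adjusted p = 0.0195), and the call was lost without CCI 4 (edgeR adjusted p = 0.0767), without sham 1 (0.0515), without sham 2 (0.0509) or without both CCI 2 and sham 2 (0.0564). CCI 4 also had the highest sum of adipocyte genes among the CCI libraries, 1210.4 CPM against 614 to 795 CPM, and the part of fat tissue in the level of Timd4 was not tested. The related receptors Havcr1 and Havcr2 were higher in CCI, at 2.67 ± 0.446 and 4.60 ± 0.466 CPM, against 0.0647 ± 0.129 and 0.340 ± 0.184 CPM in sham libraries. Among other genes of the uptake of dying cells, Mertk, a receptor kinase, fell by 0.51 and its ligand Gas6 fell by 0.68 on the log2 scale. Mfge8, which bridges phosphatidylserine to integrins, rose by 0.44 (edgeR adjusted p = 3.73e-05) and the scavenger receptor Stab1 rose by 1.65, while the receptor kinase Axl was at 289 ± 30.2 CPM in CCI and 295 ± 20.2 CPM in sham libraries and did not pass (edgeR adjusted p = 0.788).

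Adgre1, which encodes the rodent macrophage antigen F4/80, had 129, 112, 115 and 119 CPM in CCI 1 to 4, against 16.5, 14.6, 17.1 and 19.5 CPM in sham 1 to 4. Of the 10 markers it had the smallest SE, and the groups were far apart. The fold was 7.01 (95% interval 6.07 to 8.09; edgeR adjusted p = 5.27e-09).

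Gpnmb, a membrane glycoprotein of lysosomes in lipid-laden macrophages, was per length the most abundant marker in both groups, and in CPM in CCI nerve. It had 2214, 2076, 2008 and 1543 CPM in CCI libraries, against 108, 207, 216 and 127 CPM in sham libraries. The groups were separate, CCI 4 being the lowest of the CCI libraries. The fold was 11.9 (95% interval 7.96 to 17.8; edgeR adjusted p = 2.15e-06). Per length, Gpnmb averaged 917 ± 129.9 FPKM in CCI and 66.0 ± 22.1 FPKM in sham libraries, which was 79.9% ± 3.07 of the summed FPKM of the 10 markers in CCI and 43.3% ± 4.54 in sham libraries (SD, n = 4). Melanocytes also carry Gpnmb. Of their markers the pigment cell gene Pmel was at 2.80 ± 0.366 CPM in CCI and 3.38 ± 0.527 CPM in sham libraries, Mlana had 5 counts in CCI and 21 in sham libraries, Tyr 12 in CCI and 3 in sham libraries, and Slc45a2 1 in each group, and the melanosome enzyme gene Tyrp1 rose, averaging 15.5 ± 8.64 CPM in CCI and 0.714 ± 0.465 CPM in sham libraries. Dct had a log2 fold change of -1.66 and did not pass, but was called lower without CCI 3 (-2.45, edgeR adjusted p = 0.0365). Of the 3 tested genes of the melanocyte list, Tyrp1 alone was called. The whole list summed to 9.41 to 29.1 CPM in CCI and 4.43 to 5.62 CPM in sham libraries, and the part of melanocytes in the level of Gpnmb was not tested. The 250 bases before the start of Gpnmb, per length the most abundant marker, are shown with the AP-1 match in capitals (RefSeq, build GRCr8, chr4:79340878-79341127, plus strand, 5′ to 3′).
Gpnmb: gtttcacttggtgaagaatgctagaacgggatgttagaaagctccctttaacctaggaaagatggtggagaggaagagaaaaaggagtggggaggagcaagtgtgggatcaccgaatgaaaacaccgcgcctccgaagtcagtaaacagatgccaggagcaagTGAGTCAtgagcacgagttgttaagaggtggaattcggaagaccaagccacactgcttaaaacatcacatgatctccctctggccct
The match reads TGACTCA on the minus strand and starts 87 bases before the start of the gene. Among factors of the MiT family, which bind E-boxes, Tfec averaged 19.3 ± 3.05 CPM in CCI and 2.85 ± 0.872 CPM in sham libraries and passed, Tfe3 fell by 0.45 on the log2 scale, and Mitf had a log2 fold change of -0.24 (SE 0.16) and did not pass (edgeR adjusted p = 0.208).

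**Figure D3:**
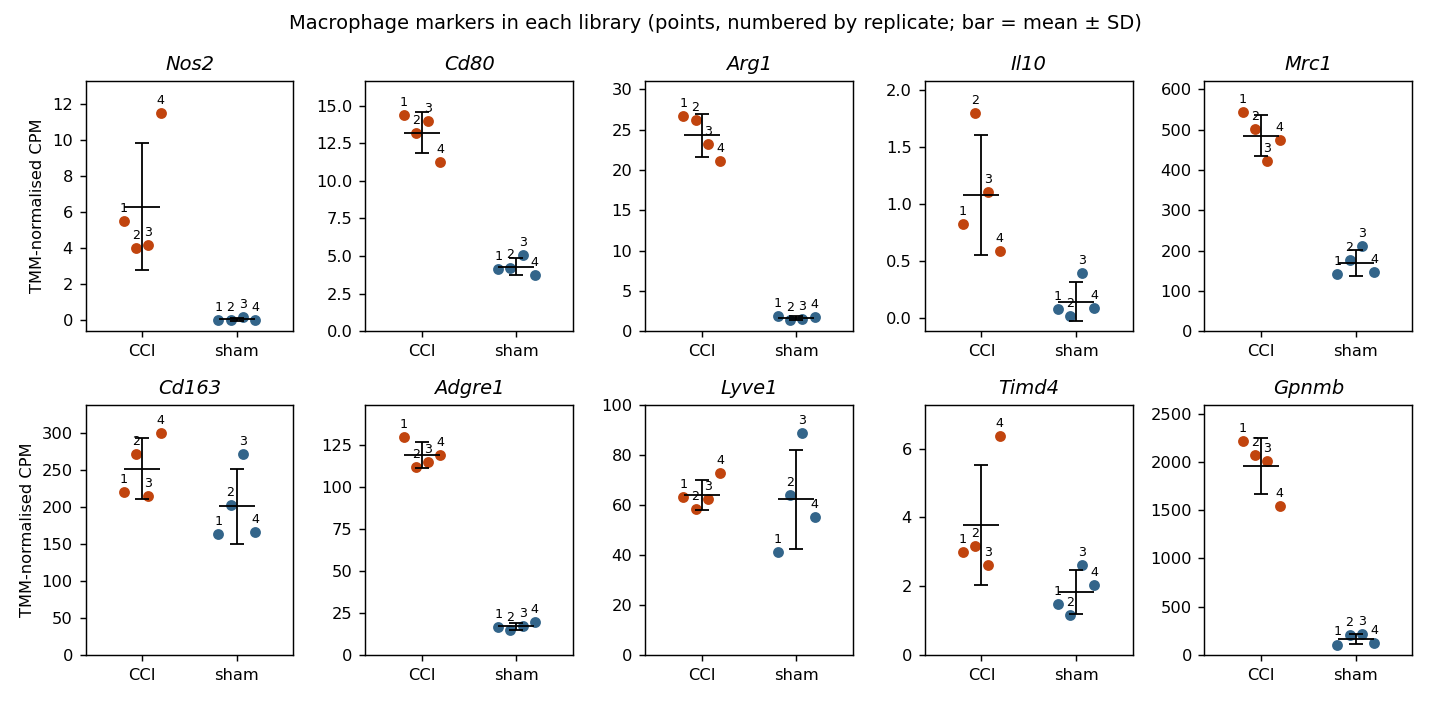
TMM-normalised CPM of the 10 markers in each CCI (left, orange) and sham (right, blue) library, numbered by replicate, with mean ± SD (n = 4 each). The groups do not overlap for 7 markers; for Cd163, Lyve1 and Timd4 sham 3 lies above at least 1 CCI library.

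By counts over all genes, sham 1 was most like sham 4 and sham 2 most like sham 3. In a chi-square of counts over its degrees of freedom, sham 1 against 4 gave 28.7 and sham 2 against 3 gave 31.0, while the other sham pairs gave 52.4 to 78.3. That chi-square gives more weight to abundant genes. Of all genes tested, 19.8% were higher in both sham 2 and sham 3 than in sham 1 and sham 4, and 23.1% were lower. The other genes followed neither order. Some genes would follow any pairing of 4 libraries by chance, and other pairings were not counted. Sham 2 and sham 3 were both above sham 1 and sham 4 for 5 of the 10 markers, Mrc1, Cd163, Lyve1, Gpnmb and Cd80. Sham 3 was the highest sham library for 8 markers, all except Arg1 and Adgre1, and the share of all genes highest in sham 3 was not computed. The mean log2 CPM of the 16 pan-macrophage genes was 4.85, 4.95, 5.35 and 5.27 in sham 1 to 4, an order that differed from that of Gpnmb. The lower red cell sums of sham 2 and sham 3, given above, split the sham libraries as these 5 markers did, and their part in the order was not tested.

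Per length, the order of the markers differed little between the groups, apart from Nos2 and Adgre1. In CCI nerve it ran from Gpnmb over Mrc1, Cd163, Adgre1, Lyve1, Arg1, Cd80, Nos2 and Timd4 to Il10, and the single libraries of neighbours overlapped between Cd163 and Adgre1, between Cd80 and Nos2 and between Nos2 and Timd4. In sham nerve Lyve1, at 18.6 ± 5.92 FPKM, stood above Adgre1, at 4.80 ± 0.580 FPKM, and Nos2, at 0.0120 ± 0.0203 FPKM, was the lowest. There the single libraries of neighbours overlapped between Mrc1 and Cd163, between Cd163 and Lyve1, between Cd80 and Timd4 and between Il10 and Nos2.

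Set against the pan-macrophage genes in the same library, the markers went different ways. The pan-macrophage genes averaged 7.69 ± 0.09 log2 CPM in CCI and 5.11 ± 0.24 log2 CPM in sham libraries (SD, n = 4), a 5.99-fold difference, and each marker was expressed as its log2 ratio to that mean, with a prior count of 2. Lyve1, Cd163, Timd4, Mrc1 and Cd80 were lower relative to them in CCI than in sham libraries, Gpnmb, Arg1 and Nos2 were higher, and Adgre1 and Il10 did not pass. Each of the 8 differences was complete, with no overlap of the libraries. Each had the smallest p that 4 against 4 libraries allow (exact two-sided permutation test, p = 0.0286, and 0.0357 adjusted over the 10 markers). Since the pan-macrophage mean itself rose by 2.58 on the log2 scale, a gene of unchanged level would also come out lower on this ratio. The share of all genes that would pass was not computed, so the count of 8 cannot be read as particular to the markers. The log2 ratio of Lyve1 was -1.69 ± 0.18 in CCI and 0.80 ± 0.33 in sham libraries, a difference of -2.49. That of Cd163 was 0.28 ± 0.31 in CCI and 2.52 ± 0.29 in sham libraries, a difference of -2.24. The difference was -1.58 for Timd4, -1.05 for Mrc1 and -0.97 for Cd80. It was 1.04 for Gpnmb, with 3.24 ± 0.18 in CCI and 2.19 ± 0.46 in sham libraries, 1.28 for Arg1, and 3.77 for Nos2. The size for Nos2, nearly absent from sham libraries, rests on the prior count: it was 5.07 with a prior count of 0.5 and 1.26 on log2(FPKM + 0.1). Adgre1 differed by 0.23 (exact permutation p = 0.0857) and Il10 by 0.25 (0.743), and the sign for Il10 turned without CCI 2 (-0.043) or without sham 2 (-0.079).

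The choice of pan-macrophage genes mattered for several of these ratios. Relative to C1qa, C1qb and C1qc, complement genes that are strong in resident macrophages, Lyve1, Cd163, Gpnmb, Arg1 and Nos2 still passed, Adgre1 passed with a difference of 1.04, and Mrc1 (-0.23, adjusted exact permutation p = 0.143), Timd4 (-0.76, 0.0816) and Cd80 (-0.15, 0.4) did not. Relative to Ptprc and Csf1r, the general leukocyte and macrophage receptor genes, Timd4 did not pass (-1.26, 0.0635) and Adgre1 did (0.54, 0.0357). The list holds genes that other leukocytes share, and lymphocyte and neutrophil genes were also higher: summed T and NK cell genes were 270 to 368 CPM in CCI and 67.1 to 101 CPM in sham libraries, and neutrophil genes 89.5 to 231 CPM in CCI and 2.90 to 6.66 CPM in sham libraries. The part of these cells in the ratios was not tested.

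**Figure D4:**
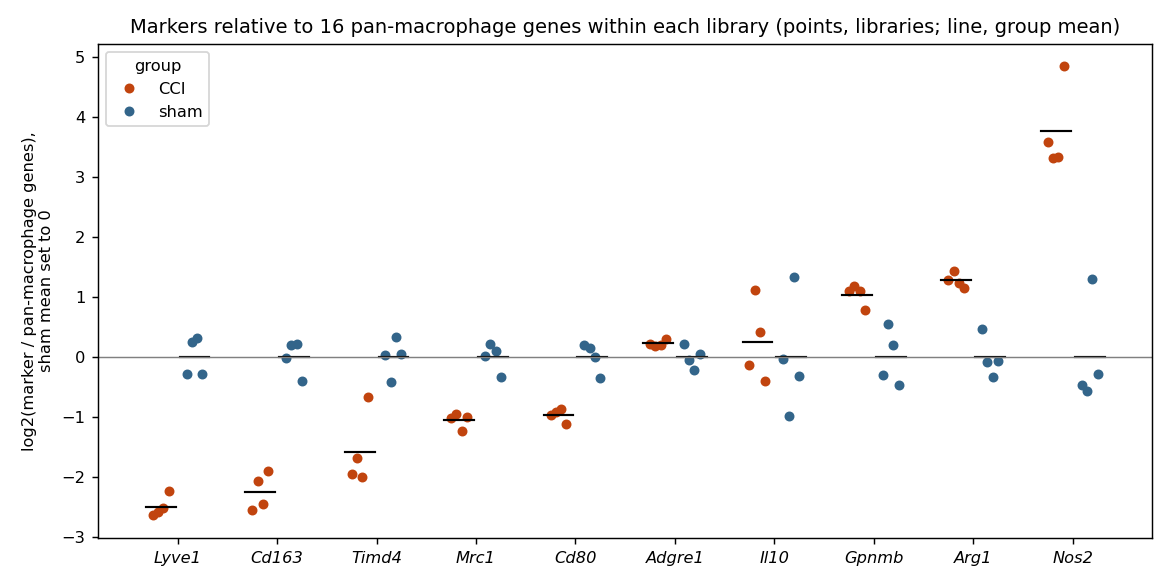
Log2 ratio of each marker to the mean of 16 pan-macrophage genes in the same library, with the sham mean of each marker set to 0; points are CCI (left, orange) and sham (right, blue) libraries and lines are group means. Lyve1 and Cd163 lie lowest in CCI, at -2.49 and -2.24, and Nos2 highest, at 3.77.

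Lists of related genes were counted with the 10 markers left out, and were read against the 36.2% of all genes that were higher and the 32.2% that were lower. The lists share genes, so their counts are not independent. Cd68 and Tyrobp of the lipid-laden list and Lyz2 of the recruited monocyte list are also pan-macrophage genes. The list of ligands, receptors and partners repeats Cd86, Pdcd1lg2, Hmox1, Hp and Gas6 from other lists. Of 20 further tested genes of classical activation, 18 rose and 0 fell, with a median log2 fold change of 1.87. Some genes counted in the lists passed the filter on counts through the CCI libraries alone, so only a rise could be called. Among them were Il1a (184 counts in CCI and 1 in sham libraries) and Il6 (870 and 14) here. In the lipid-laden list, Mmp12 (10926 and 5) and Atp6v0d2 (1133 and 6) were such genes. Other genes of that list were too sparse to be tested, and Acod1 had no entry. These were Tnf (4 counts in CCI and 0 in sham libraries), Ido1 (5 and 0), Il12b (37 and 0) and Fpr2 (8 and 15). The cytokine Il1b rose by 5.37 (SE 0.21) and the chemokine receptor Ccr7, also a dendritic cell gene, rose by 5.36 (SE 0.20). The 2 that did not pass were the interleukin subunits Il12a and Il23a, at 0.404 ± 0.148 and 0.541 ± 0.247 CPM in CCI and 0.296 ± 0.143 and 0.588 ± 0.112 CPM in sham libraries. Of 22 further tested genes of alternative activation, 15 rose and 2 fell, with a median of 1.74. Retnla, with 0 counts in CCI and 1 in sham libraries, was not tested, and Chil3 had no entry. Tgm2, a transglutaminase, averaged 288 ± 25.7 CPM in CCI and 81.5 ± 6.81 CPM in sham libraries, and Tgfb1 averaged 144 ± 12.3 CPM in CCI and 45.1 ± 3.71 CPM in sham libraries. The 2 that fell were the transcription factors Irf4 and Egr2, and Egr2 is also a gene of the myelinating Schwann cell. The inducing cytokines were hardly detected at this depth: Il4 had 1 count in the CCI and 0 in the sham libraries, and Il13 and Ifng had 0 in all 8. Il4r, a receptor chain for Il4 and Il13, rose, averaging 145 ± 26.0 CPM in CCI and 31.8 ± 6.72 CPM in sham libraries.

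Of 15 further tested genes of tissue residency, 11 rose and 3 fell, with a median of 1.98. Folr2, a folate receptor, averaged 96.8 ± 7.02 CPM in CCI and 21.2 ± 3.67 CPM in sham libraries. The log2 fold change of Folr2 was 2.19 (SE 0.12), while Lyve1 and Cd163, which are often found on the same resident cells, did not pass. The 3 that fell were Mertk, Gas6 and the transcription factor Maf, chosen after their values were seen, as were the other exceptions named here. Of 16 tested genes of recruited monocytes, 15 rose and 1 fell, with a median of 2.68. The list shares S100a8, S100a9 and Fcnb with the neutrophil list, in which 8 of 10 tested genes rose with a median of 5.08, and the part of neutrophils in these 3 genes was not tested. The integrin Itgam rose by 3.77 (SE 0.14) and Plac8 rose by 3.43 (SE 0.20), while Nr4a1, a nuclear receptor of patrolling monocytes that is also an immediate early gene in many cells, fell by 1.16 (SE 0.31). Of 26 further tested genes of lipid-laden macrophages, 18 rose and 3 fell, with a median of 1.70. The lysosomal protein gene Cd68 averaged 279 ± 29.0 CPM in CCI and 17.8 ± 3.53 CPM in sham libraries, and Trem2, a lipid receptor, averaged 57.8 ± 6.24 CPM in CCI and 7.66 ± 2.41 CPM in sham libraries. The 3 that fell were Tfe3, given above, the tetraspanin gene Cd9, with 163 ± 22.0 CPM in CCI and 769 ± 63.9 CPM in sham libraries, and Spp1. The cell type behind these falls was not tested, and the genes of the myelinating Schwann cell, given above, also fell in CCI. Spp1, the secreted protein osteopontin, averaged 1648 ± 256 CPM in CCI and 3714 ± 1937 CPM in sham libraries (edgeR adjusted p = 0.0240). Among other scalings and left-out libraries its call was lost in 6 cases, with adjusted p between 0.0512 and 0.115: with library totals only, and without CCI 2, CCI 4, sham 2, sham 3 or both CCI 2 and sham 2. Of 24 tested ligands, receptors and partners of the markers, 17 rose and 2 fell, Gas6 and Il34, a ligand of the Csf1r receptor. The costimulatory receptor Icos of T cells, at 9.11 ± 1.72 CPM in CCI and 0.558 ± 0.247 CPM in sham libraries, was among the largest rises.

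**Figure D5:**
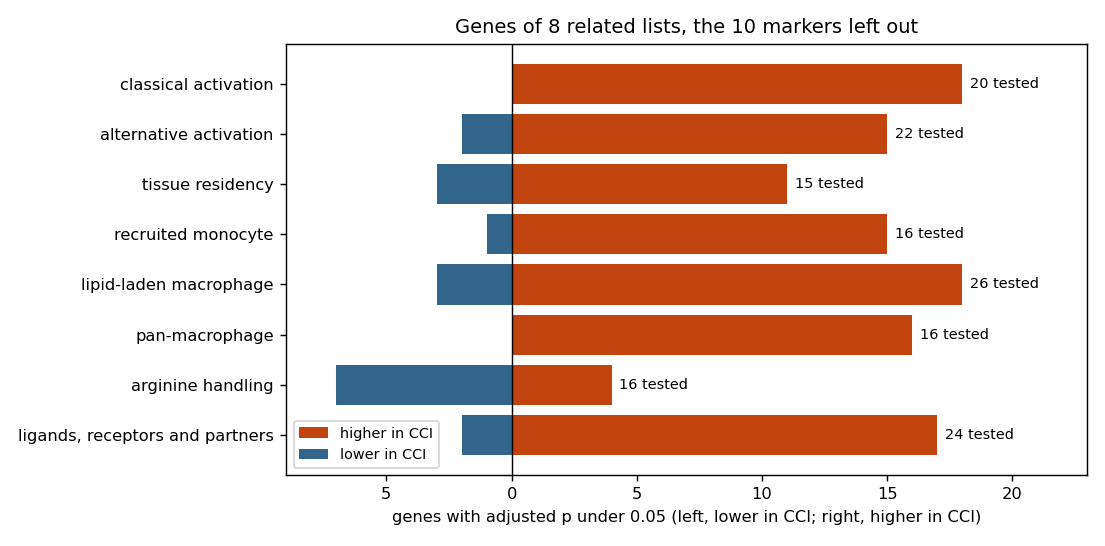
Number of genes called higher (right, orange) and lower (left, blue) in CCI in 8 lists, with the 10 markers left out and the number tested written beside each bar. Arginine handling has 4 rises and 7 falls, which become 6 and 6 with libraries scaled by their totals only.

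Among 11656 genes of at least 5 CPM on average, those closest to each marker were found by the root mean square difference over the 8 libraries between log2 CPM profiles, each centred on its own mean. The closest to Adgre1 were Csf2ra (0.07), Ifi30 (0.08) and Cyth4 (0.09), and the closest to Mrc1 were Htr2b (0.08), B4galt1 (0.09) and Tmem154 (0.10). Cd163 was closest to Prkaa1 (0.10), LOC108348215 (0.12) and Filip1l (0.13), and Lyve1 to Cpne8 (0.13), RGD1564125 (0.14) and Sepp1 (0.15). Timd4 was closest to Fcna (0.20), Ccdc80 (0.26) and Pdia5 (0.30), and of these Fcna, a ficolin, had 41.1 ± 16.9 CPM in CCI and 16.4 ± 4.88 CPM in sham libraries. Arg1 was closest to LOC100360754 (0.11), Tacc3 (0.11) and Ccnf (0.12), Cd80 to Mcm4 (0.11), Il17ra (0.12) and RGD1559575 (0.12), and Gpnmb to Ebi3 (0.21), Fam110a (0.22) and Pik3r5 (0.23). For the sparse markers the smallest difference was 0.59 for Nos2, from Il1rn, and 0.59 for Il10, from Relt. With 8 sham counts of Nos2 and 25 of Il10, counting noise enters these differences. The measure includes the change between groups, so close genes tend to have a like log2 fold change. Arg1, at 3.89, had neighbours at 3.91, 3.87 and 3.76. Shared regulation was not tested.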

How the data were processed

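PolyA RNA of rat sciatic nerve, 4 libraries after CCI and 4 after a sham operation, was analysed. For each library, the authors deposited raw counts per gene symbol and FPKM values. Per the submitters' processing notes, fastp, HISAT2, HTSeq, R 3.2.0 and DESeq2 were used, named without a role, with the build Rnor_6.0; the annotation and strand setting were not given in the sources used here, so overlapping genes and near-identical copies are uncertain. The deposited FPKM equalled count over length and library total (for all 12465 genes of at least 50 counts in each library, implied lengths agreed within 0.001), with no correction for library makeup, and served for levels between genes.

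Counts were filtered with filterByExpr, scaled by TMM and tested with edgeR 4.0.16 (quasi-likelihood F test, robust; R 4.3.3), CCI against sham over all 8 libraries without covariates. The filter asks for enough counts in as many libraries as a group holds. A gene nearly absent from either group was therefore tested only if it was high in the other. SE is the coefficient over the square root of F, and intervals use it with the moderated degrees of freedom, so both are approximate. Within-library ratios were tested with an exact permutation test over 70 splits. The script was tested on simulated data with 67, 67 and 66 genes changed 1.5-fold, 2-fold and 4-fold. It recovered 38.8%, 62.7% and 83.3% of them, with 7 false calls in 15249 genes tested. With so few genes changed, the simulation cannot show how scaling and calling behave where 68.4% of genes are called. No 2 libraries of a group agreed within counting noise (chi-square over its degrees of freedom, 28.7 to 78.3), and none was merged.

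The markers and lists were chosen with earlier results of these data known. Genes were named by rule: all markers; the called genes of 2 lists (arginine handling; ligands, receptors and partners) with the 3 largest changes each way at 1 CPM or more; the 2 smallest p of the other lists; the 3 closest profiles; others, among them partners of each marker, were chosen after their values were seen. A gene that the rule names and a motif are not reported here. Alternatives were other scalings, DESeq2 1.42.0, limma-voom and limma on log2 FPKM (limma 3.58.1), other filters, a replicate block, a minimum fold, and libraries left out. Promoter sequences are from RefSeq (GRCr8).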

Additional observations from a re-analysis of the deposited data

Results flagged for a closer look

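Within single groups, 2 values stood apart from the other 3 libraries, out of 20 groups examined, of which chance alone gives about 1 in 20. Nos2 in sham 3, at 0.163 CPM, was separated from the next sham library by 0.864 of the range of that group, which rests on 7 counts. Timd4 in CCI 4, at 6.36 CPM against 2.60 to 3.17 CPM in the other CCI libraries, was separated by 0.849 of the range. Both were past the 95% limit of Dixon's test for 4 values. Nos2 was also highest in CCI 4 among the CCI libraries, at 11.5 CPM, without passing that limit.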

How the results depend on the processing

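The number of markers called was 8 as reported and 7 to 9 when single libraries were left out, and it was 5, of 7 tested, when genes needed at least 5 CPM in 4 libraries, since Nos2, Timd4 and Il10 are then not tested. Of 187 recomputed log2 fold changes of single markers, 175 kept direction and call. Lyve1 turned to -0.0092 with that filter, and between -0.11 and 0.26 when single libraries were left out. Cd163 gained a call in 4 alternatives and Timd4 lost it in 4, as given above, except that limma on log2(FPKM + 1) and log2(FPKM + 0.1) also called Cd163 (0.55 and 0.57). The difference in the log2 ratio of Arg1 to Nos2 was -2.50 as reported, between -3.04 and -2.09 without single libraries, and -0.071 on log2(FPKM + 0.1). The ratio of Il10 to the pan-macrophage genes turned to -0.91 on log2(FPKM + 0.1), and was -0.043 without CCI 2, -0.079 without sham 2 and -0.37 without both. Not every same-numbered pair of libraries deviated together (correlations of 0.19, 0.46, -0.07 and -0.01 over 11656 genes), so the replicate numbers were not taken as pairs; with a replicate block, 8 markers and 10505 genes were called, and the sign-flip test of the Arg1 to Nos2 difference (-2.50) gave an exact p of 0.125, the smallest that 4 pairs allow, so the 8 ratios to the pan-macrophage genes could not pass in that form either. For all genes, 8855 to 11170 were called over the alternatives, against 10788. The sham libraries held 8 counts of Nos2 and 25 of Il10 in all, and the intervals of their fold changes were wide.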
